A study of Homo sapiens with 6 samples.

Results

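The genes described here are 10 members of the YAP and TEAD system, chosen by symbol: the coactivators YAP1 and WWTR1 (which encodes TAZ), the DNA-binding partners TEAD1 and TEAD4, the target genes CCN1, CCN2 and ANKRD1, and the regulators AMOTL2, LATS2 and AJUBA. All 10 were found by Ensembl identifier among the 37871 genes of the count table, and all 10 were among the 19170 genes with enough counts to be tested. Total RNA was sequenced from T24, an established cell line from a human bladder carcinoma, in 3 libraries treated with lipopolysaccharide (LPS) plus nigericin and 3 libraries given vehicle. LPS comes from the outer membrane of Gram-negative bacteria and is sensed by TLR4, and nigericin carries potassium ions out of the cell, a trigger of the NLRP3 inflammasome. The agents were given together, so their separate effects cannot be told apart, and neither dose nor duration is given in the sources used here.

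YAP and TAZ do not bind DNA themselves. They enter the nucleus and switch on genes by binding TEAD transcription factors, and the LATS kinases of the Hippo pathway phosphorylate both coactivators so that they are held in the cytoplasm and degraded. Cell shape, tension on the actin cytoskeleton, cell contact and soluble signals all act on the pathway, and YAP activity has been linked to the growth of urothelial carcinoma cells. The RNA levels given here carry no measure of the phosphorylation or location of either coactivator.

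Library totals ran from 66180407 to 86594539 gene counts after LPS plus nigericin and from 81917343 to 89152224 in vehicle. Levels are counts per 1000000 (CPM) on TMM-scaled library sizes, errors of means are SDs (n = 3 in each group), and fold changes and adjusted p-values are from edgeR's quasi-likelihood test with Benjamini-Hochberg adjustment over all tested genes. CPM are shares of a library, so fewer cells and less RNA per cell cannot be told apart in them. Whether replicates were separate cultures is not stated, and the p-values therefore reflect only how these libraries varied, which may be technical. The labels name 2 companies for RNA extraction without saying which handled each library, so an extraction batch cannot be checked against the groups. The cells are labelled epithelial. The keratin genes KRT7, KRT8, KRT18 and KRT19 were at 139 to 2307 CPM after treatment and 323 to 4016 CPM in vehicle, and all 4 fell. EPCAM, an epithelial adhesion gene, was at 1.13 to 3.34 CPM over all libraries and did not pass. The epithelial adhesion gene CDH1 (E-cadherin) and the uroplakin genes UPK1A, UPK1B, UPK2 and UPK3A, which mark mature urothelium, were below 1 CPM in every library. The urothelial factors GATA3 and PPARG were at 10.9 to 11.5 and 38.9 to 44.0 CPM after treatment, against 14.9 to 20.9 and 79.7 to 87.5 CPM in vehicle, and both fell, with log2 fold changes of -0.71 and -1.04. Of the 3 mesenchymal markers, CDH2 and FN1 rose, with log2 fold changes of 1.78 and 1.29, while VIM did not pass, at 70.1 to 79.1 CPM after treatment and 82.8 to 97.5 CPM in vehicle (log2 fold change -0.25, edgeR adjusted p = 0.0904). The part of these shifts in the results was not tested. Summed over the 6 leukocyte markers in the table the level was 5.38 to 7.65 CPM after treatment and 5.27 to 12.7 CPM in vehicle, and the defining marker PTPRC had 3 counts over all libraries. Within that sum 2 markers moved in opposite directions. CD79A rose (log2 fold change 3.33, edgeR adjusted p = 0.00161) and CD68 fell (-1.54, edgeR adjusted p = 0.00903).

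Of the 10 genes, 5 rose after LPS plus nigericin, 1 fell and 4 did not pass the threshold at an adjusted p of 0.05. Of all tested genes 55.3% passed, 28.9% higher and 26.4% lower, so 6 of 10 is near the background and the count is not a result about these genes. Of the 13808 genes with at least 1 CPM in 3 libraries 9452 passed, a larger share, and most genes of the lists below reach that level. LATS2 and TEAD1 rose most, YAP1, AMOTL2 and CCN2 rose by smaller amounts, TEAD4 fell, and WWTR1, CCN1, ANKRD1 and AJUBA did not pass. For 7 of the 10 the ranges of both groups were separate, against 67% of all tested genes.

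**Figure D1:**
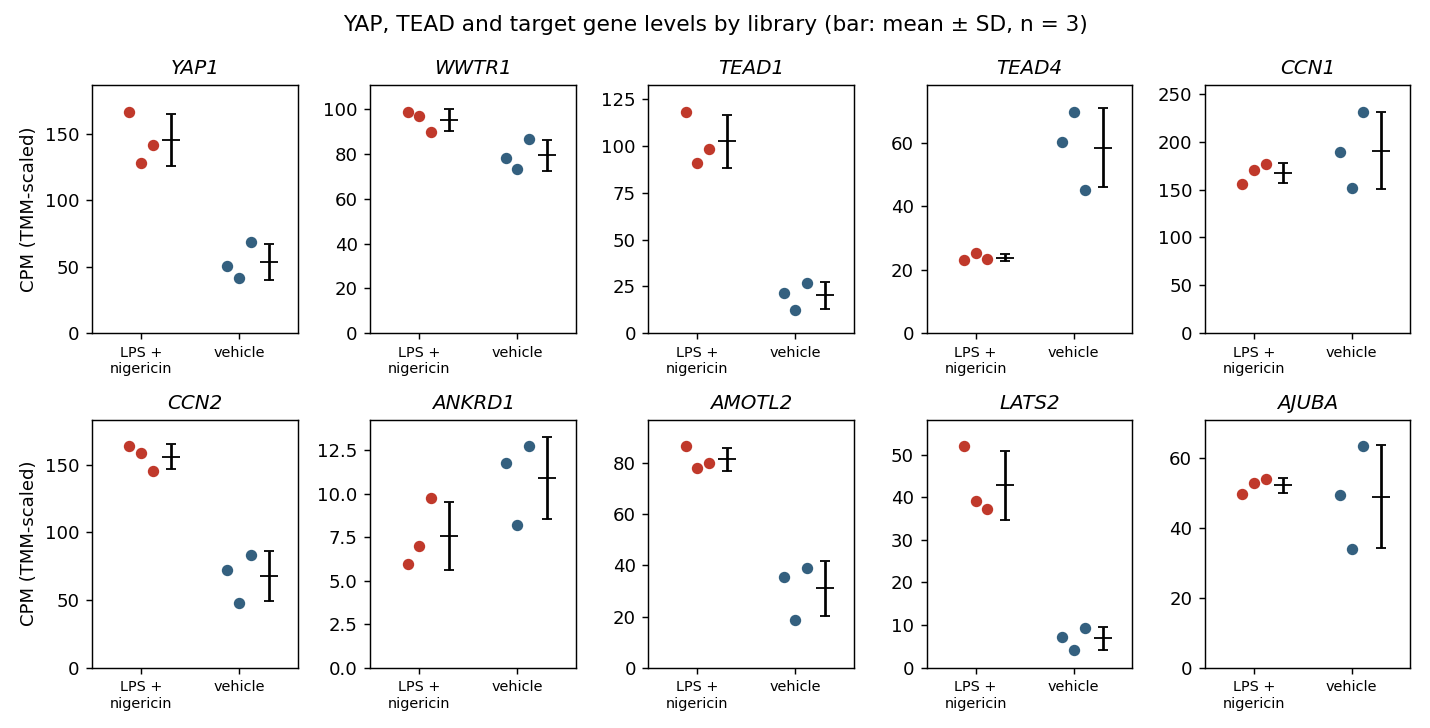
CPM of each of the 10 genes (vertical axes from 0, a scale per gene) in the 3 LPS plus nigericin libraries (red) and the 3 vehicle libraries (blue); the bar beside each group is the mean ± SD. The groups stand apart for YAP1, TEAD1, TEAD4, CCN2, AMOTL2 and LATS2, narrowly for WWTR1, and overlap for CCN1, ANKRD1 and AJUBA.

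The vehicle libraries differed among themselves in a shared way. For 9 of the 10 genes vehicle library 2 was the lowest vehicle library and vehicle library 3 the highest, and TEAD4 showed the reverse. The lowest vehicle value was 43.6% of the highest for LATS2 and 84.6% for WWTR1, the ends of the range. Log2 fold changes also followed GC content across 13976 protein-coding genes (Spearman rho = -0.529 across genes, not across independent samples). They followed transcript length too (Spearman rho = 0.335 across the same genes). Neither trend can be told apart from the treatment. Values from a fit with per-library offsets for GC content and transcript length are therefore given beside many of the results. Such offsets also remove any effect of treatment that follows either property.

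The coactivators did not move alike. YAP1 was at 167, 128 and 142 CPM in LPS plus nigericin libraries 1 to 3, against 50.5, 41.8 and 68.8 CPM in vehicle libraries 1 to 3. Every treated library was well above every vehicle library. YAP1 rose 2.72-fold (an edgeR log2 fold change of 1.44, SE 0.197 and adjusted p = 0.000716), a change above that of 87.4% of tested genes. With the GC and length offsets it was 0.78 (SE 0.0979, edgeR adjusted p = 0.000315). WWTR1 was at 99.0, 96.8 and 89.8 CPM after treatment, against 78.2, 73.3 and 86.6 CPM in vehicle. The groups were close without overlapping, and the difference did not pass (log2 fold change 0.26, SE 0.111, edgeR adjusted p = 0.0751). The sign of the WWTR1 value depended on the fit, since with the offsets it was -0.53 (SE 0.108, edgeR adjusted p = 0.00391).

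The balance of the coactivators needs no scaling between libraries. Per kilobase of exon, YAP1 was at 2.26, 1.77 and 2.11 times the WWTR1 level in the treated libraries, against 0.862, 0.762 and 1.06 times in the vehicle libraries. The size of these ratios rests on the merged exon lengths, 6296 bases for YAP1 and 8413 for WWTR1. The longest transcripts are 5398 and 5030 bases. With those lengths YAP1 would still be the higher in each treated library, but WWTR1 the higher in each vehicle library. The difference between the groups does not depend on the lengths. The within-library log2 ratio differed by 1.20 between the groups, and by 1.31 with the offsets. The groups did not overlap (two-sided exact permutation p = 0.1, the smallest that 3 against 3 libraries allow).

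The TEAD genes moved in opposite directions. TEAD1, lowest of the family in vehicle per kilobase of exon but not in CPM, was at 118, 90.9 and 98.2 CPM after treatment. In vehicle TEAD1 was at 21.4, 12.5 and 26.7 CPM. It rose 5.07-fold (log2 fold change 2.34, SE 0.268, edgeR adjusted p = 0.000349). Of tested genes, 94.9% had a lower value. TEAD4 was at 22.9, 25.1 and 23.2 CPM after treatment, against 60.2, 69.8 and 45.2 CPM in vehicle. The treated libraries lay close together and all below vehicle, and TEAD4 fell 2.46-fold (log2 fold change -1.30, SE 0.171, edgeR adjusted p = 0.000615). The 2 genes lie towards opposite ends of the GC range, with 41.3% for TEAD1 and 60.4% for TEAD4. They also differ in length, with longest transcripts of 8477 and 1690 bases. With the offsets for both properties the changes were 1.47 and -0.64 (edgeR adjusted p = 6.09e-05 and 0.000817). TEAD2, a paralogue, averaged 10.6 ± 0.788 CPM after treatment and 16.2 ± 3.10 CPM in vehicle (log2 fold change -0.61, edgeR adjusted p = 0.0170), and TEAD3 averaged 10.2 ± 0.640 and 16.7 ± 0.135 CPM in the same order (-0.71, edgeR adjusted p = 0.00266). Neither of these falls passed with the offsets, at -0.06 and -0.16 (edgeR adjusted p = 0.686 and 0.348), and TEAD2 did not pass without treated library 1 or 3.

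**Figure D2:**
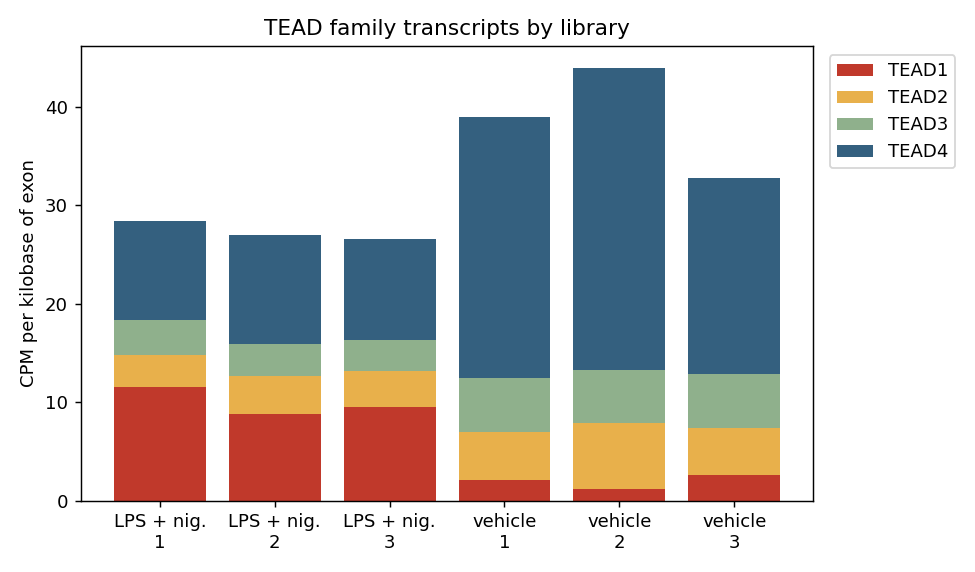
Stacked levels of the 4 TEAD transcripts in CPM per kilobase of exon (vertical axis) in each LPS plus nigericin library (left) and each vehicle library (right). TEAD1 takes 32.8% to 40.5% of the stack after treatment and 2.77% to 7.93% in vehicle. The stack itself is lower after treatment on this per-kilobase scale.

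Per kilobase of exon, the TEAD family summed to 27.3 ± 0.987 CPM per kilobase after treatment and 38.6 ± 5.62 in vehicle. TEAD1 made up 36.4% ± 3.89 of that sum after treatment and 5.35% ± 2.58 in vehicle, and TEAD4 made up 38.3% ± 2.76 and 66.2% ± 4.82 (SD, n = 3 each). TEAD1 was thus at 1.14, 0.799 and 0.935 times the TEAD4 level in the treated libraries, against 0.0786, 0.0396 and 0.131 times in the vehicle libraries. The within-library log2 ratio of TEAD1 to TEAD4 differed by 3.68 between the groups, or 2.12 with the offsets, with no overlap (two-sided exact permutation p = 0.1, the smallest possible). The family sum and the shares rest on the merged exon lengths, 10279 bases for TEAD1 and 2272 for TEAD4, and are given without the offsets. In CPM, without division by length, the summed TEAD level was higher after treatment and not lower.

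TEAD factors bind a short core motif. Only the bases before gene starts were searched here, so a window without the core does not speak to sites elsewhere. The 250 bases before each RefSeq start (GRCh38.p14) were searched for the TEAD core GGAATG on both strands (CATTCC on the other), for the AP-1 site TGANTCA, whose partner factors JUN and FOS often act beside TEAD, and for the CArG box of SRF. The table matched 7 of the 10 genes (not CCN1, TEAD1 and TEAD4), with 10 windows in all. The windows of CCN2, ANKRD1, AMOTL2 and YAP1 that hold a match are shown as examples. CCN2, AMOTL2 and YAP1 rose, while ANKRD1, with the same core, did not pass. AJUBA also holds a core and did not pass, and its window is not shown. LATS2, with the largest change, has no core in its upstream window. The windows shown are written 5′ to 3′ on the gene's strand and end at the base before the start, with the TEAD core in capitals.
CCN2, GRCh38.p14 chr6:131951373-131951622, minus strand: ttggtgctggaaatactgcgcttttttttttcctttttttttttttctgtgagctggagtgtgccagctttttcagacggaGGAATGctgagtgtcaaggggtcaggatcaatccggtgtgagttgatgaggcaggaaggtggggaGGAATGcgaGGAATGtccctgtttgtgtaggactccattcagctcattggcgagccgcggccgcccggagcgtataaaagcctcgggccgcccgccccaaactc
ANKRD1, GRCh38.p14 chr10:90921088-90921337, minus strand: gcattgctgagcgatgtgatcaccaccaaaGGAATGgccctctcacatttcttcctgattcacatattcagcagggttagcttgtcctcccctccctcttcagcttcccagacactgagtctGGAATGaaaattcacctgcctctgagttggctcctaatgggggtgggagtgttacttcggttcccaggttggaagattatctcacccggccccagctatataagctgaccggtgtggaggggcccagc
AMOTL2, GRCh38.p14 chr3:134374448-134374697, minus strand: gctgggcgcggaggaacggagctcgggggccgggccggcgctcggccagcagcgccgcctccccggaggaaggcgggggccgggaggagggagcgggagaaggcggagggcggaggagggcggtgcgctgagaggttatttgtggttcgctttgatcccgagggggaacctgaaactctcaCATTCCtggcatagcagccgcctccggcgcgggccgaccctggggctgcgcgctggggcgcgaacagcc
YAP1, GRCh38.p14 chr11:102110197-102110446, plus strand: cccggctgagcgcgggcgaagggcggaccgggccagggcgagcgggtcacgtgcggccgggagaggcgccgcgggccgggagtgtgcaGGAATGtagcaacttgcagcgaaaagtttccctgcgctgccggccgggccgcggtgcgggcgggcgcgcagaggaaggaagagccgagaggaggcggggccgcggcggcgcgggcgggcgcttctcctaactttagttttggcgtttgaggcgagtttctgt
CCN2 holds 3 cores, starting at -169, -104 and -95 from its start. Of 35116 windows of this length in the RefSeq table, 0.0826% hold 3 or more. ANKRD1 holds 2, at -220 and -128, where 0.940% of windows hold 2 or more. It also has 1 AP-1 match at -195, which overlaps neither core. AMOTL2 (1 of its starts), YAP1 and AJUBA (1 of its starts) hold 1 each, at -69, -162 and -59, where 11.9% of all windows hold at least 1. No window of WWTR1 and no upstream window of LATS2 held the core, LATS2 having 1 within the 50 bases after its start. AP-1 matches were in 6.57% of all windows and CArG matches in 1.16%, and no window of these genes held a CArG match. A match describes these letters and not a bound site.

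The secreted targets parted. CCN1 and CCN2 encode matricellular proteins that bind integrins, and both are standard readouts of YAP activity. CCN2 was at 164, 158 and 146 CPM after treatment, against 72.2, 47.6 and 83.3 CPM in vehicle. The groups were well apart, and CCN2 rose 2.30-fold (log2 fold change 1.20, SE 0.197, edgeR adjusted p = 0.00159). CCN1 was at 155, 170 and 177 CPM after treatment, against 189, 152 and 232 CPM in vehicle, with the treated values inside the vehicle range (log2 fold change -0.19, SE 0.159, edgeR adjusted p = 0.343). Both genes have a GC content near the median of 49.0%, at 50.3% for CCN1 and 51.5% for CCN2, and with the offsets CCN2 was at 1.35 and CCN1 at -0.12. CCN1 passed without vehicle library 2, at -0.33 (edgeR adjusted p = 0.0404).

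Per kilobase of exon, CCN1 was at 0.905, 1.02 and 1.15 times the CCN2 level after treatment, against 2.49, 3.05 and 2.65 times in vehicle. The 2 transcripts were level in the treated libraries, while CCN1 exceeded CCN2 in every vehicle library. The log2 ratio differed by -1.41 between the groups, with no overlap (two-sided exact permutation p = 0.1, the smallest possible), and by -1.49 with the offsets. CCN3, another gene of the family, had 23.3 ± 1.69 CPM after treatment and 21.1 ± 6.34 CPM in vehicle and did not pass (log2 fold change 0.14, edgeR adjusted p = 0.605, or -0.02 with the offsets).

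ANKRD1 encodes an ankyrin-repeat protein of the nucleus and the muscle sarcomere and is widely used as a YAP readout. It was the least abundant of the 10 per kilobase after treatment. It was at 5.95, 7.02 and 9.73 CPM after treatment, against 11.8, 8.21 and 12.7 CPM in vehicle, with overlap of treated library 3 and vehicle library 2. The difference did not pass (log2 fold change -0.53, SE 0.242, edgeR adjusted p = 0.0980). It passed with the GC and length offsets, at -0.84 (edgeR adjusted p = 0.00684), and without vehicle library 2, at -0.70 (edgeR adjusted p = 0.0211). In none of the fits did ANKRD1 share the direction of CCN2.

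Among the regulators that are also targets, LATS2 and AMOTL2 rose. LATS2 is the kinase that phosphorylates YAP and TAZ, and its own transcription by YAP closes a negative feedback loop. It was at 51.9, 39.2 and 37.1 CPM after treatment, against 7.29, 4.10 and 9.42 CPM in vehicle. LATS2 had the largest change of the 10, rising 6.15-fold (log2 fold change 2.62, SE 0.303, edgeR adjusted p = 0.000363), above 95.7% of tested genes, and it was at 2.49 with the offsets. Its paralogue LATS1, a kinase of the same function, was at 17.6 ± 1.15 CPM after treatment and 5.52 ± 2.13 CPM in vehicle and rose by 1.67 on the log2 scale (edgeR adjusted p = 0.00158), or 0.77 with the offsets. LATS2 took 78.8% ± 1.91 of the LATS family level per kilobase after treatment and 66.0% ± 1.56 in vehicle.

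AMOTL2 belongs to the angiomotins, which hold YAP at cell junctions and actin. It was at 86.4, 77.8 and 79.8 CPM after treatment, against 35.3, 18.7 and 38.8 CPM in vehicle. The treated libraries lay within a narrow band above all vehicle libraries, and AMOTL2 rose 2.63-fold (log2 fold change 1.39, SE 0.251, edgeR adjusted p = 0.00248), or by 1.63 on the log2 scale with the offsets. AMOTL1 had 31.2 ± 3.04 CPM after treatment and 32.2 ± 2.64 CPM in vehicle and did not pass (log2 fold change -0.05, edgeR adjusted p = 0.780), though it passed as lower with the offsets, at -0.59. AMOT stayed below 1 CPM in all libraries. AMOTL2 thus took 81.2% ± 1.27 of the angiomotin level per kilobase after treatment and 60.2% ± 7.49 in vehicle.

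AJUBA, a LIM-domain protein that holds LATS kinases inactive, was at 49.7, 52.8 and 54.0 CPM after treatment, against 49.4, 34.0 and 63.4 CPM in vehicle. The treated values lay inside the vehicle range (log2 fold change 0.09, SE 0.209, edgeR adjusted p = 0.732). The related genes LIMD1, at 25.8 ± 3.14 CPM after treatment and 31.7 ± 3.19 CPM in vehicle, and WTIP, at 28.4 ± 3.06 and 27.2 ± 3.58 CPM in the same order, did not pass either (edgeR adjusted p = 0.113 and 0.751). LIMD1 passed with the offsets, at -0.96 (edgeR adjusted p = 0.000315).

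**Figure D3:**
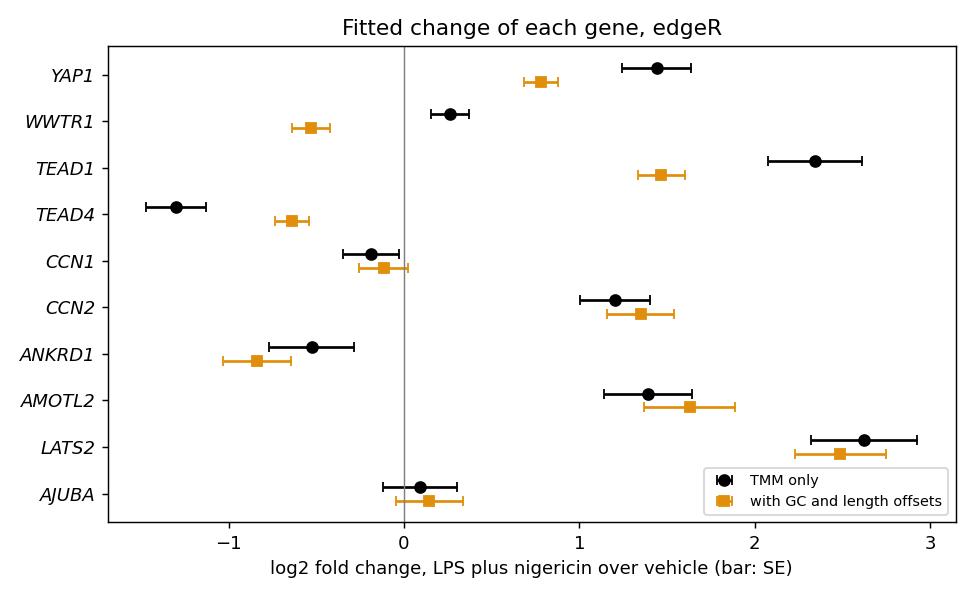
Log2 fold change of each gene (horizontal axis, LPS plus nigericin over vehicle, bars are SE) from edgeR with TMM factors (black circles) and with offsets for GC content and length (orange squares). YAP1, TEAD1 and TEAD4 come closer to 0 with the offsets, LATS2, CCN2 and AMOTL2 keep their size, and WWTR1 changes sign.

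The order of the levels per kilobase of merged exon changed between the groups, and within a group it depends on those lengths. After treatment the order was CCN1, CCN2, YAP1, AMOTL2, WWTR1, TEAD4, TEAD1, AJUBA, LATS2 and ANKRD1, from 68.2 ± 4.43 to 3.82 ± 0.982 CPM per kilobase. The ranges of CCN1 and CCN2 overlapped there, as did those of each pair of adjacent genes from WWTR1 to LATS2. In vehicle it was CCN1, CCN2, TEAD4, WWTR1, YAP1, AJUBA, ANKRD1, AMOTL2, TEAD1 and LATS2, from 77.8 ± 16.2 to 1.24 ± 0.480. The ranges of CCN2 and TEAD4 overlapped, as did those of TEAD1 and LATS2 and of each pair of adjacent genes from WWTR1 to AMOTL2. WWTR1 and YAP1 were nevertheless above ANKRD1 and AMOTL2 in vehicle without overlap. LATS2, the lowest of the 10 in vehicle, was above ANKRD1 after treatment without overlap.

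**Figure D4:**
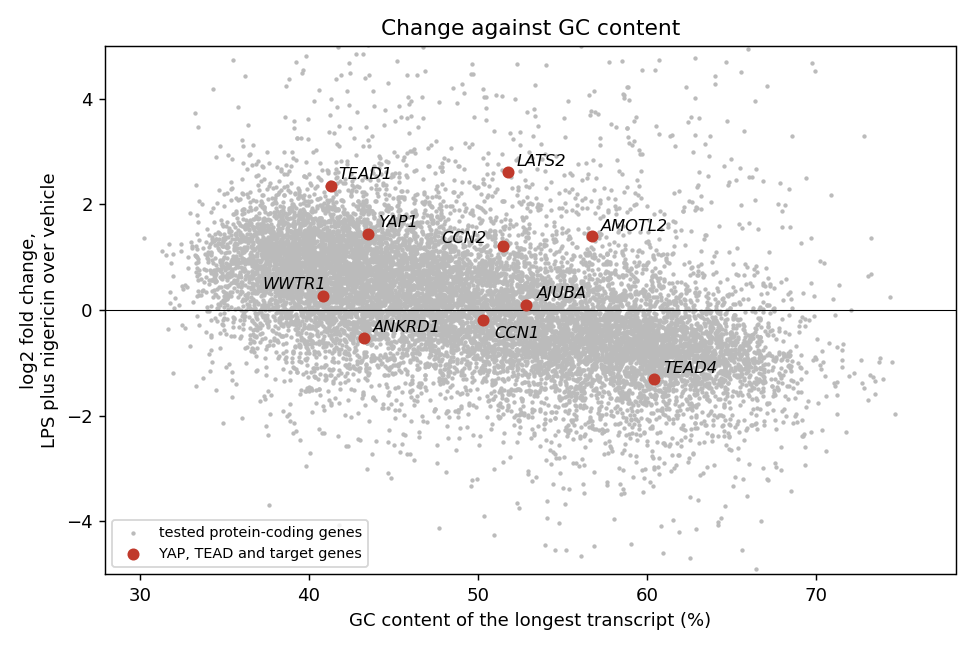
Log2 fold change (vertical axis, LPS plus nigericin over vehicle) against GC content of the longest transcript (horizontal axis, percent) for 13976 tested protein-coding genes (grey) with the 10 genes in red; 107 grey genes lie beyond the vertical axis limits. TEAD1, YAP1 and TEAD4 lie on the side of 0 where most genes of like GC content lie, LATS2, CCN2 and AMOTL2 lie above the bulk, and ANKRD1 lies towards its lower edge.

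Beyond the 10 genes, a list of 22 target genes of YAP and TAZ, which includes 5 of them, was examined. Of the 22, 16 rose, 3 fell and 3 did not pass, or 86.4% against 55.3% of all tested genes, and the median log2 fold change was 1.04 against 0.0016 over all tested genes. Leaving out the 5 shared genes, 13 of 17 rose, 3 fell and 1 did not pass the threshold. With only genes of at least 1 CPM in 3 libraries, 19 of the 22 passed, against 9452 of all 13808. The list was chosen with earlier results of these data known, so these shares and medians are not an independent test of it. With the offsets 13 of the 22 rose and 3 fell, against 50.6% of all genes passing in that fit, and the median was 0.60. TGFB2, a TGF-beta ligand, averaged 20.7 ± 2.21 CPM after treatment and 4.42 ± 1.24 CPM in vehicle (log2 fold change 2.23, SE 0.226, edgeR adjusted p = 0.000214). GADD45A, a stress-induced growth arrest gene, averaged 116 ± 6.65 and 27.7 ± 9.29 CPM in the same order (log2 fold change 2.07). ASAP1, a regulator of ARF GTPases and focal adhesions, rose by 1.78 on the log2 scale, and AXL, a receptor tyrosine kinase, by 0.90. With the offsets TGFB2 was at 1.40, GADD45A at 2.23, ASAP1 at 1.11 and AXL at 0.97. The members that fell were FJX1, whose fly relative Four-jointed is a Golgi kinase, with 15.6 ± 1.81 CPM after treatment and 58.9 ± 8.14 CPM in vehicle (log2 fold change -1.91), NUAK2, a kinase that acts on actomyosin (-1.08), and FOXF2, a mesenchymal transcription factor (-0.90). With the offsets FJX1 was at -1.22 and NUAK2 at -0.72, and FOXF2 did not pass, at -0.19 (edgeR adjusted p = 0.466).

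**Figure D5:**
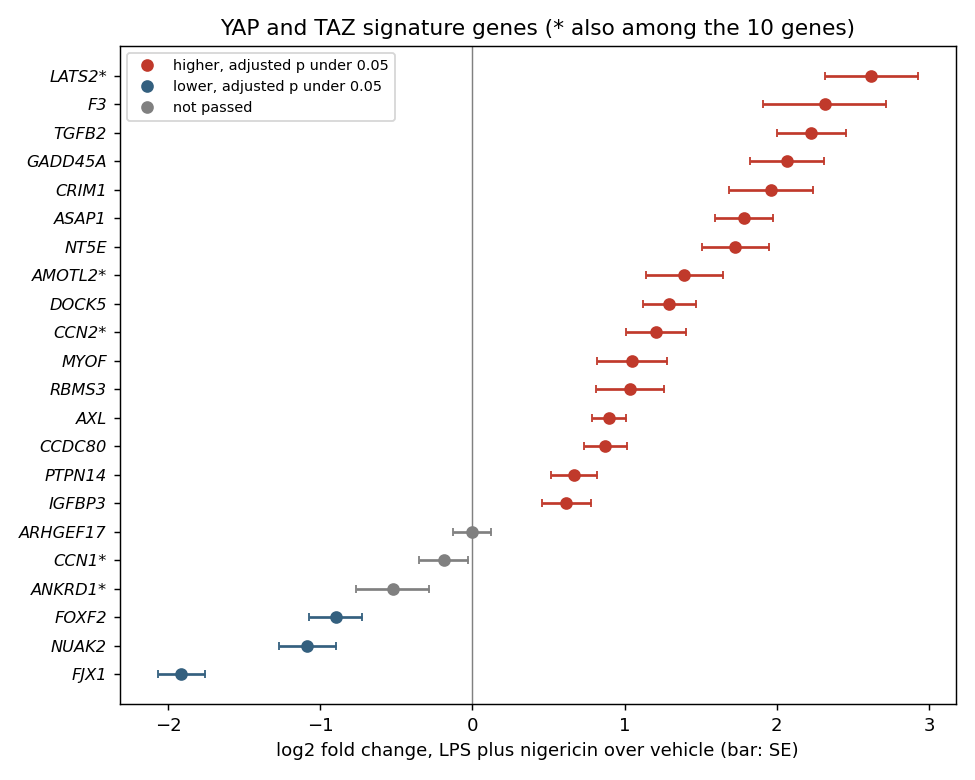
Log2 fold change (horizontal axis, LPS plus nigericin over vehicle, bars are SE) of the 22 YAP and TAZ target genes, ordered by size; red genes rose, blue genes fell and grey genes did not pass. LATS2 is at the top with 2.62 and FJX1 at the bottom with -1.91, and CCN1 and ANKRD1 are among the 3 grey genes.

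Upstream in the Hippo pathway, 33 genes that act on YAP or TAZ were tested, among them LATS2, AMOTL2 and AJUBA. Of these, 21 were higher and 3 lower past the threshold, or 72.7% against 55.3% of all tested genes, and 9 missed it, and the median was 0.67. With only genes of at least 1 CPM in 3 libraries, 25 of the list passed, against 9452 of all 13808, a background nearer to the list. With the offsets 11 rose and 5 fell, and the median was 0.14. These 16 of 33 are near the 50.6% of all genes passing in that fit, so the count there is not a result about the list. STK3, the MST2 kinase that activates LATS, averaged 21.7 ± 1.29 CPM after treatment and 5.57 ± 1.68 CPM in vehicle (log2 fold change 1.96, edgeR adjusted p = 0.000350). WWC1, the scaffold KIBRA, averaged 52.8 ± 4.45 and 19.7 ± 2.87 CPM in the same order (log2 fold change 1.42). FAT1, an atypical cadherin, rose by 1.86 and TAOK1, a kinase upstream of STK3, by 1.59 on the log2 scale. With the offsets STK3 was at 1.07, WWC1 at 1.29, FAT1 at 1.09 and TAOK1 at 0.62. NF2, which encodes merlin, averaged 125 ± 8.97 CPM after treatment and 179 ± 16.6 CPM in vehicle and fell by 0.52 on the log2 scale (edgeR adjusted p = 0.00641). TAOK2, a paralogue of TAOK1, fell by 1.14 on the log2 scale (-0.70 with the offsets), and CSNK1D, a casein kinase that marks YAP for degradation, fell by 0.36 on the log2 scale but did not pass with the offsets, without any 1 treated library, or without vehicle library 1.

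Of 18 tested TEAD family and coregulator genes, which include both coactivators and the 4 TEADs, 9 rose and 5 fell past the threshold, or 77.8% against 55.3% of all tested genes, and the median was 0.48. The other 4 did not pass. With only genes of at least 1 CPM in 3 libraries, 14 of the list passed, against 9452 of all 13808, a background nearer to the list. With the offsets 6 rose and 4 fell, and the median was 0.14. These 10 of 18 are near the 50.6% of all genes in that fit. JUN, an AP-1 subunit, had the smallest p of this list, with 434 ± 52.9 CPM after treatment and 104 ± 12 CPM in vehicle (log2 fold change 2.06, SE 0.142, edgeR adjusted p = 5.67e-05). The other AP-1 subunit on the list, FOSL1, averaged 600 ± 33.6 CPM after treatment and 911 ± 97.6 CPM in vehicle (log2 fold change -0.60, edgeR adjusted p = 0.00377), a value that was 0.028 with the offsets and did not pass there. The nuclear receptor coactivators NCOA3 and NCOA1 each rose by 1.08 and RUNX1 by 0.61 on the log2 scale, and none of these 3 passed with the offsets, at 0.23, 0.35 and 0.05. TP73, a p53 family factor that can bind YAP, fell by 0.83 on the log2 scale (-0.46 with the offsets), and TEAD3 and TEAD2 fell as given above.

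SRF and its coactivators MRTFA and MRTFB answer to actin and share targets with YAP. Of 21 tested genes of this list 8 rose, 6 fell and 7 did not pass, or 66.7% against 55.3% of all tested genes, with a median of 0.13. With only genes of at least 1 CPM in 3 libraries, 15 of the list passed, against 9452 of all 13808. That is near the background, so the count is not a result about the list. With the offsets 9 rose and 2 fell, and these 11 of 21 are near the 50.6% of all genes in that fit. CALD1, caldesmon, averaged 95.8 ± 12.5 CPM after treatment and 30.4 ± 5.11 CPM in vehicle (log2 fold change 1.66), and TPM1, a tropomyosin, VCL, vinculin, and ACTG1, gamma-actin, rose by 0.67, 0.75 and 0.60 on the log2 scale. With the offsets CALD1 was at 0.98, TPM1 at 0.27, VCL at 0.05 and ACTG1 at 1.11. ACTB, beta-actin, fell by 0.50, TGFB1I1, a focal adhesion LIM protein, by 1.40, FHL2 by 0.81 and CNN2, a calponin, by 0.34, the last turning to 0.09 with the offsets. With the offsets TGFB1I1 was at -1.07 and FHL2 at -1.20. VCL and ACTB (-0.12) did not pass with the offsets either, and CNN2 also failed without any 1 treated library or without vehicle library 1.

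Among 10483 genes of at least 5 mean CPM, those whose 6 library values lay nearest to YAP1, by the root mean square difference in log2 CPM after centring each gene, were KIF5B, PNPT1 and SRSF10, at 0.023, 0.034 and 0.044. For CCN2 they were UAP1, PNRC2 and POT1, at 0.029, 0.031 and 0.049.

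On the GRCh38 assembly (GENCODE 29), all 10 genes are protein-coding. The coactivators are YAP1 (ENSG00000137693, chr11:102110461-102233423, plus strand) and WWTR1 (ENSG00000018408, chr3:149517235-149736714, minus strand). The DNA-binding partners are TEAD1 (ENSG00000187079, chr11:12674591-12944483, plus strand) and TEAD4 (ENSG00000197905, chr12:2959330-3040673, plus strand). The targets are CCN1 (ENSG00000142871, chr1:85580761-85583962, plus strand), CCN2 (ENSG00000118523, chr6:131948176-131951373, minus strand) and ANKRD1 (ENSG00000148677, chr10:90912096-90921276, minus strand). The regulators are AMOTL2 (ENSG00000114019, chr3:134355874-134375479, minus strand), LATS2 (ENSG00000150457, chr13:20973032-21061547, minus strand) and AJUBA (ENSG00000129474, chr14:22971174-22982642, minus strand). Antisense genes share 9.45% of the exon bases of WWTR1 (with WWTR1-AS1), 9.97% of YAP1 and 8.34% of CCN2, and without a stated strand setting the reads of such a pair cannot be told apart there. WWTR1-AS1 itself was listed at 0.391 CPM after treatment and 0.673 CPM in vehicle.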

How the data were processed

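RNA was measured in 6 libraries of T24 cells, grouped by their titles. The deposited values are raw counts, with Ensembl genes in rows and libraries in columns per the file headers, and hg38 is the build per the submitters' processing notes. For the aligner, counter, annotation release and strand setting the sources used here give nothing. Each column was matched to its sample by library name, and 0 columns belonged to no sample.

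Genes were filtered with filterByExpr, scaled with TMM factors and tested with edgeR 4.0.16 in R 4.3.3 (robust quasi-likelihood F test, group as the only term, Benjamini-Hochberg adjustment). The SE is |log2 fold change| / √F. Between replicates the chi-square over its degrees of freedom was 22.6 to 187, so the spread between libraries, and not depth, sets the precision. Levels per kilobase use the merged exons of GENCODE 29. The offsets were loess fits (span 0.3) per library, over 18620 genes. Fitted was each gene's deviation in log2 CPM (prior count 2) from its mean over the libraries. The predictors were GC content and log2 length of the longest transcript. Other alternatives were RLE factors, library totals, DESeq2 1.42.0, limma-voom 3.58.1, 2 count filters, the replicate block, no mitochondrial genome genes, and leaving out each library.

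The members and lists were chosen with earlier results of these data known. Named genes were the 10 members, up to 4 genes per direction and list with the smallest p, and the 3 nearest to YAP1 and CCN2. CCN3, LATS1, AMOTL1, AMOT, LIMD1 and WTIP were added as paralogues outside that rule. Exact permutation used within-library log2 count ratios. The fits were also tested on simulated counts. Python 3.11.15 drew the figures.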

Additional observations from a re-analysis of the deposited data

How the results depend on the processing

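The 6 calls among the 10 genes (YAP1, TEAD1, TEAD4, CCN2, AMOTL2, LATS2) held with the same sign in all 16 alternatives, and the count of calls was 6 to 8. The ends of the range were 0.78 and 1.65 for YAP1, 1.47 and 2.58 for TEAD1, and -1.46 and -0.63 for TEAD4. WWTR1 was at -0.53 with the GC and length offsets and -0.52 with the offsets and the replicate block, and passed at 0.32 without vehicle library 3 (edgeR adjusted p = 0.0367); the cause was not tested. AJUBA ranged from -0.12 (without vehicle library 2) to 0.31 when each library was left out. FOSL1 was at 0.028 and CNN2 at 0.089 with the offsets, and 0.028 and 0.090 with the offsets and the block. Over 40 named genes and their alternatives, 601 values kept direction and side of the threshold, 27 lost the call, 5 gained one and 7 changed sign. The count of SRF and MRTF genes called was 9 to 16 when each library was left out, 9 being without vehicle library 1, where fewer samples were fitted. For the Hippo pathway list, with 24 called in the main fit, the count was 16 to 25 when each library was left out. The 16 came without treated library 1, where 8341 of all 19947 tested genes passed. The 3 within-library ratio differences kept their sign under all alternatives run.

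Same-numbered libraries deviated together by a correlation of -0.023, 0.096 and -0.024, so the numbers were not taken as pairs. With the replicate block 6 of the 10 genes and 10408 of all genes passed, against 6 and 10610 without it. For the 3 within-library ratios the block leaves the differences (1.20, 3.68 and -1.41) unchanged by arithmetic, and the two-sided exact permutation p was 0.25 for each, the smallest that 3 pairs allow, against 0.1 without it.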
